A study of Arabidopsis thaliana with 3 samples.

Results

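LHCB4.1, PSAE1, RCA, PRK and SBPASE are 5 Arabidopsis thaliana genes of the light-harvesting antenna, photosystem I and the Calvin cycle, followed here in leaves of plants that overexpress the transcription factor WIN1. They were chosen by name, and the array's annotation pairs each of them with a probe set, the array's unit of measurement made up of several short probes. Other photosynthesis genes paired with a probe set are given further below. They took up 7 of the 8247 probe sets and were 5 of the 3592 loci that could be named. Leaf RNA of the 35S:WIN1 lines 13 and 22 was set against leaf RNA of plants transformed with an empty binary vector, on 1 Affymetrix Arabidopsis Genome Array each. Each array held a pool of leaves, from several T2 plants of a line or from several empty-vector plants. WIN1 was under the 35S promoter, taken from cauliflower mosaic virus and active in most tissues, so its expression is not limited to the epidermis, where the gene is known to act on wax and cutin. The sources used here give neither plant age nor accession. No probe set was paired with the WIN1 locus AT1G15360 (0 of 8247), so the overexpression itself was not checked.

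In photosynthesis, antenna proteins pass light energy to the photosystems, which drive electrons through the thylakoid membrane to ferredoxin. The resulting reducing power and ATP feed the Calvin cycle in the stroma, where Rubisco fixes carbon dioxide and other enzymes regenerate its acceptor. In leaves the nuclear genes of this machinery are among the most strongly transcribed and respond together to light, sugars and stress. LHCB4.1 encodes CP29, a minor antenna protein between the outer antenna and the core of photosystem II. PSAE1 encodes a stromal subunit of photosystem I that helps ferredoxin dock. RCA is Rubisco activase, which frees Rubisco of inhibitory sugar phosphates and is made as a longer and a shorter splice form. PRK is phosphoribulokinase, which makes the carbon dioxide acceptor, and SBPASE is sedoheptulose bisphosphatase, which commits carbon to its regeneration. Both of these enzymes are switched on in the light through thioredoxin.

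The transcripts of all 5 genes lay near the control in line 13 and above it in line 22 once each array had been scaled by 1 factor. The deposited median intensity was 84.1 on the control array, 70.2 on that of line 13 and 35.2 on that of line 22, so each array was multiplied by 1 factor to a common trimmed mean. On this scale the 7 probe sets had log2 ratios to the control from -0.19 to 0.088 in line 13. In line 22 these ratios ran from 0.18 to 0.88. With quantile normalization or cyclic loess instead, 5 of the 7 were above the control in line 22. A log2 ratio is the difference of log2(scaled intensity + 18.6), where 18.6 is a small constant that steadies dim values and hardly touches probe sets this bright. Other bright probe sets were also above the control in line 22, and none of the 7 left the middle 80% of the 200 probe sets nearest in mean brightness in either line. With neighbours by control brightness, a probe set of PSAE1 and that of RCA lay above it in line 22. In pooled leaf RNA, fewer cells of a type and less RNA per cell cannot be told apart.

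The antenna gene LHCB4.1 (AT5G01530) was read by probe set 15995_at. Control leaves gave a scaled intensity of 3196, line 13 leaves 3191 and line 22 leaves 4468. Line 13 and the control were thus nearly equal, and line 22 was higher. The log2 ratio was -0.0020 in line 13 and 0.48 in line 22, a mean of 0.24 ± 0.34 (SD between lines, n = 2). As deposited, the control was the highest of the 3 arrays, with 4055 against 3252 in line 13 and 3183 in line 22. By brightness within an array, which no scaling factor alters, LHCB4.1 held place 15 of 8247 on the control array, place 14 on that of line 13 and place 23 on that of line 22. Its place in line 22 was therefore lower than in the control, although its scaled intensity was higher.

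The photosystem I gene PSAE1 (AT4G28750, PSAE-1 in the annotation) was read by 3 probe sets, which give the only measure of how far readings of a single member differ on these arrays. In Affymetrix naming, the endings i and r mark sets made of fewer probes or under relaxed rules, and s marks a set that may also read related transcripts. The sources used here do not say which transcripts the s set 18090_s_at reads, so a part from other genes of the family was not tested. For 18088_i_at the scaled intensity of the control was 1890, that of line 13 was 1820 and that of line 22 was 3485. In the same order, 18089_r_at gave 1204, 1258 and 2082, and 18090_s_at gave 2820, 2471 and 3949. All 3 were highest in line 22, whereas line 13 lay below the control in 2 of them and above it in 18089_r_at.

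In line 22 the log2 ratios of the PSAE1 probe sets were 0.88, 0.78 and 0.48, and in line 13 they were -0.054, 0.062 and -0.19. Averaged over the probe sets, PSAE1 stood at -0.060 in line 13 and 0.71 in line 22, or 0.33 ± 0.55 over the lines (SD, n = 2). The probe sets had an SD among themselves of 0.125 (line 13) and 0.205 (line 22). Among 17 other genes with several probe sets in the brightest 20%, readings of the same gene had a pooled SD of 0.112 in line 13 but 1.22 in line 22. The SD of PSAE1 was thus below this pooled SD in line 22. A pooled SD over 17 genes can be raised by a few of them, so PSAE1 was not compared with a typical gene. The brightness places of the PSAE1 probe sets moved from 102 in the control to 54 in line 22 for 18088_i_at. They moved from 276 to 158 for 18089_r_at, but from 29 to 37 for 18090_s_at.

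The Calvin cycle genes RCA and PRK resembled the PSAE1 probe sets 18088_i_at and 18089_r_at. RCA (AT2G39730, probe set 15949_s_at) gave a scaled intensity of 2174 in control leaves, 2138 in those of line 13 and 3799 in those of line 22. Its log2 ratio was -0.023 in line 13 and 0.80 in line 22, a mean of 0.39 ± 0.58 (SD between lines, n = 2). The probe set gives 1 value for the gene and does not separate the splice forms. As an s set it may also read related transcripts, and a part from these was not tested. PRK (AT1G32060, probe set 16034_at) gave 1125, 1197 and 1892 in the same order. Its log2 ratio was 0.088 in line 13 and 0.74 in line 22, a mean of 0.41 ± 0.46. RCA and PRK were near the control in line 13 and above both other arrays in line 22. In brightness, RCA moved from place 69 in the control to 43 in line 22, and PRK from 308 to 185.

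SBPASE (AT3G55800, probe set 15990_at) was the dimmest of the 7. Control leaves gave a scaled intensity of 543.7, line 13 leaves 522.8 and line 22 leaves 620.1. Its log2 ratio was -0.055 in line 13 and 0.18 in line 22, a mean of 0.065 ± 0.17 (SD between lines, n = 2). On this scale line 22 was nearer to the control for SBPASE than for PRK, but without scaling it was further from it, with log2 ratios of -0.62 and -0.082. Whether SBPASE and PRK differ could not be tested, because each line had 1 array. The 3 probe sets of PSAE1 alone spanned 0.39 in log2 ratio in line 22, and the 7 probe sets together spanned 0.69.

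**Figure D1:**
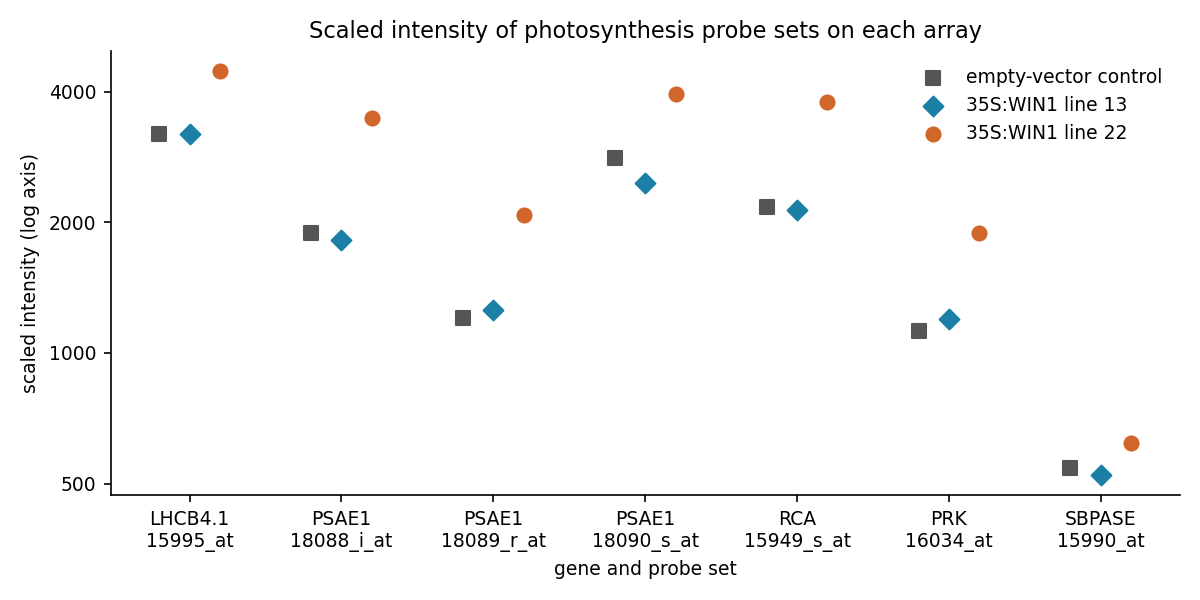
Scaled intensity (log axis) of the 7 probe sets, named by gene and probe set, on the array of the empty-vector control (squares), 35S:WIN1 line 13 (diamonds) and 35S:WIN1 line 22 (circles), 1 point per array. Line 22 was the highest array for all 7, from 620.1 for SBPASE to 4468 for LHCB4.1, and line 13 lay below the control for 5.

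The comparison of the lines with the control was tested with limma over all 5773 probe sets bright enough to be kept, two-sided, with Benjamini-Hochberg adjustment. No probe set of the 5 genes passed an adjusted p of 0.05 (0 of 7), where 0.0346% of all kept probe sets did, and 0 of 7 had an unadjusted p under 0.05, against 2.23%. Their unadjusted limma p ran from 0.562 to 0.930 and the limma adjusted p was 0.9999 for each. The limma SE was between 0.717 and 0.730. It comes mostly from the spread between the lines pooled over kept probe sets of similar level, and little from a probe set's own spread. SBPASE had the smallest SD between lines (0.17) but the largest SE (0.730). The 95% confidence interval of the mean log2 ratio of LHCB4.1 ran from -1.19 to 1.67 and that of SBPASE from -1.39 to 1.51. Such intervals hold a doubling as well as a halving, so the test shows neither a difference nor its absence.

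By size alone, with no test, 0 of the 7 differed from the control by at least 2-fold in the same direction in both lines, as did 1.42% of all kept probe sets. None reached 2-fold in line 13 (0 of 7, against 2.74%) or in line 22 (0 of 7, against 23.8%). All 7 were above the control in line 22, against 45.7% of kept probe sets but 51.5% (SBPASE) to 85.5% (LHCB4.1) of equally bright ones. This count was 5 of 7 with quantile normalization or cyclic loess and 1 of 7 without scaling. In line 13, 2 of 7 were above the control, against 50.9%. All 7 were higher in line 22 than in line 13, against 43.4% of all kept probe sets, but none by 2-fold, against 21.9%. Over equally bright probe sets the median log2 ratio of line 13 to line 22 was 0.0046 for SBPASE. For the others it was between -0.52 (LHCB4.1) and -0.36 (PRK), so most probe sets as bright as those were also higher in line 22. With quantile normalization or cyclic loess LHCB4.1 was higher in line 13 (log2 ratios of line 13 to line 22 of 0.12 and 0.17), and without scaling LHCB4.1 (0.030) and SBPASE (0.26) were. With trimmed mean scaling that ratio was -0.24 for SBPASE, -0.48 for LHCB4.1, -0.65 for PRK and -0.82 for RCA. For the PSAE1 probe sets it was -0.93, -0.72 and -0.67. Both lines were set against the same control array, so their ratios are not independent of each other.

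Line 22 was shifted against the control by different amounts at different levels of brightness. When kept probe sets were ordered by their mean log2 level and cut into 10 equal bins, the median log2 ratio of line 22 was -0.28 in the fifth bin and 0.41 in the brightest. The mean level includes the line 22 value, so a probe set high in line 22 is also placed as brighter. How much of the shift this makes was not tested. In line 13 the bin medians stayed between -0.027 and 0.037. The brightest bin held 6 of the 7 probe sets and the next held SBPASE.

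**Figure D2:**
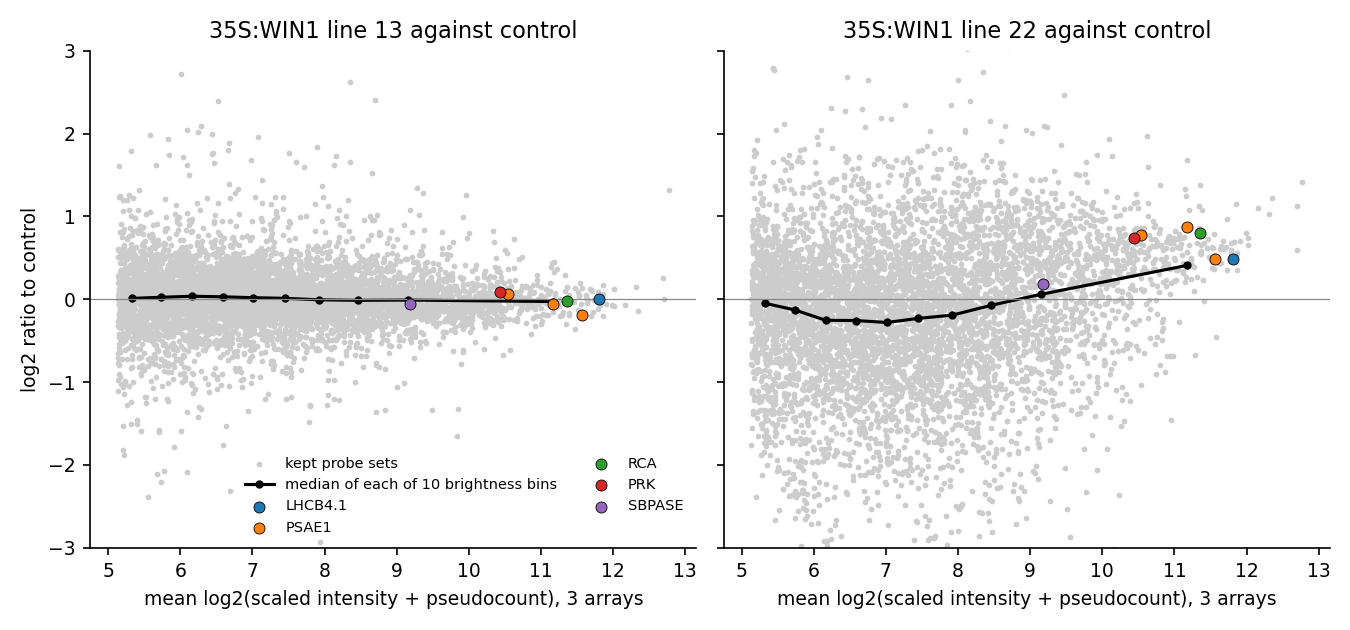
Log2 ratio to the control against the mean log2(scaled intensity + pseudocount) over the 3 arrays for the kept probe sets (grey), in line 13 (left) and line 22 (right), with the 5 genes in colour and the median of each of 10 brightness bins as a black line. The line is flat in line 13 and climbs to 0.41 in line 22, and 2 and 56 probe sets beyond 3 in either direction are outside the axis. In line 22 each coloured point is above the median of its own bin. Against the 200 equally bright probe sets, however, LHCB4.1 (-0.083) and 18090_s_at (-0.080) were below the median.

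Each probe set was compared with the 200 kept probe sets nearest to it in mean log2 level, leaving out the 5 genes themselves. In line 22 the median log2 ratio of these references was 0.56 for LHCB4.1, 0.56 for RCA, 0.38 for PRK and 0.048 for SBPASE. The LHCB4.1 ratio was below its reference (a difference of -0.083), and that of SBPASE was 0.14 above. RCA was 0.24 above and PRK 0.36 above their references. Of the PSAE1 probe sets, 18088_i_at was 0.34 and 18089_r_at 0.37 above, whereas 18090_s_at was below, at -0.080. Thus 5 of the 7 were above their reference median in line 22 and 3 of 7 in line 13. In line 22 this count was 4 with the 100 nearest probe sets, where SBPASE was at -0.071. It was 7 with the 400 nearest and with 200 neighbours by control brightness, where LHCB4.1 was at 0.017 and 0.047 and 18090_s_at at 0.019 and 0.050. By control brightness the difference was 0.53 for 18088_i_at, 0.56 for 18089_r_at, 0.40 for RCA, 0.53 for PRK and 0.28 for SBPASE. Control brightness leaves out the line 22 value but is itself the denominator of each ratio.

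The spread of these references of 200 held every one of the values. In line 22 the middle 80% of the LHCB4.1 reference ran from -0.26 to 0.94 and that of the SBPASE reference from -1.22 to 0.98. The value nearest to an edge was that of 18088_i_at, 0.88, with 89.5% of its reference below it. PRK had 83% and RCA 85% of their references below them, SBPASE 53% and LHCB4.1 43%. In line 13 the references were narrower, from -0.20 to 0.20 for LHCB4.1, and the differences from the reference median ran from -0.18 for 18090_s_at to 0.084 for PRK. All 7 lay inside the middle 80% in both lines (7 of 7 each). With the 100 or the 400 nearest probe sets 18088_i_at lay above it in line 22, and with neighbours by control brightness 18088_i_at and RCA did. For LHCB4.1 only 15 of the 200 reference probe sets were brighter than it, so its reference was on the whole dimmer than the gene.

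**Figure D3:**
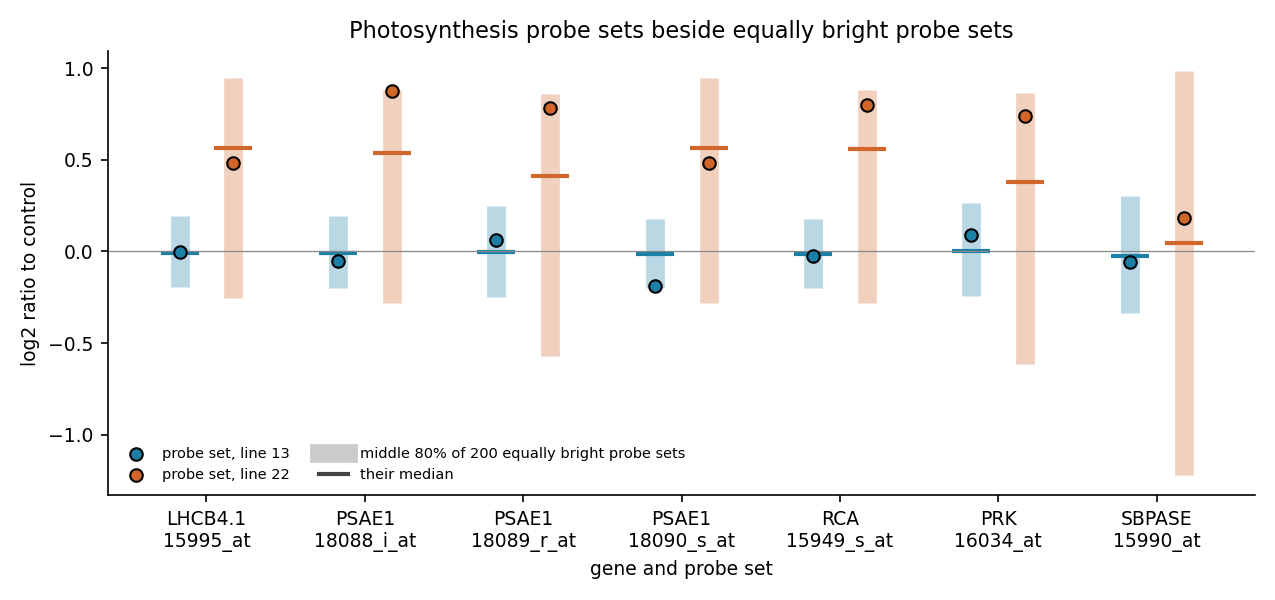
Log2 ratio to the control of each probe set (points) in line 13 (blue) and line 22 (orange), beside the middle 80% (pale bars) and the median (short lines) of the ratios of the 200 equally bright probe sets. Each point lies inside its bar, and in line 22 the median of the references runs from 0.048 for SBPASE to 0.56 for LHCB4.1.

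The direction of the line 22 values depended on how the arrays were brought to a common level. On the deposited values without scaling, the log2 ratio of line 22 was -0.35 for LHCB4.1, -0.027 for RCA, -0.082 for PRK and -0.62 for SBPASE, where the median of all kept probe sets was -0.78. The PSAE1 probe sets had 0.050 (18088_i_at, the only one of the 7 above the control), -0.043 and -0.34. All 7 were thus closer to the control than that median. With cyclic loess, which removes a shift that varies with brightness, line 22 had 0.25 for RCA, 0.39 for PRK, 0.099 for SBPASE and -0.16 for LHCB4.1. The PSAE1 probe sets then had 0.37 and 0.41, and 18090_s_at had -0.11. PRK, RCA, SBPASE, 18088_i_at and 18089_r_at were above the median of all probe sets in line 22 under the trimmed mean, median, quantile and cyclic loess scalings and without scaling. LHCB4.1 and 18090_s_at were above it without scaling and with trimmed mean or median scaling, and below it under quantile normalization and cyclic loess.

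**Figure D4:**
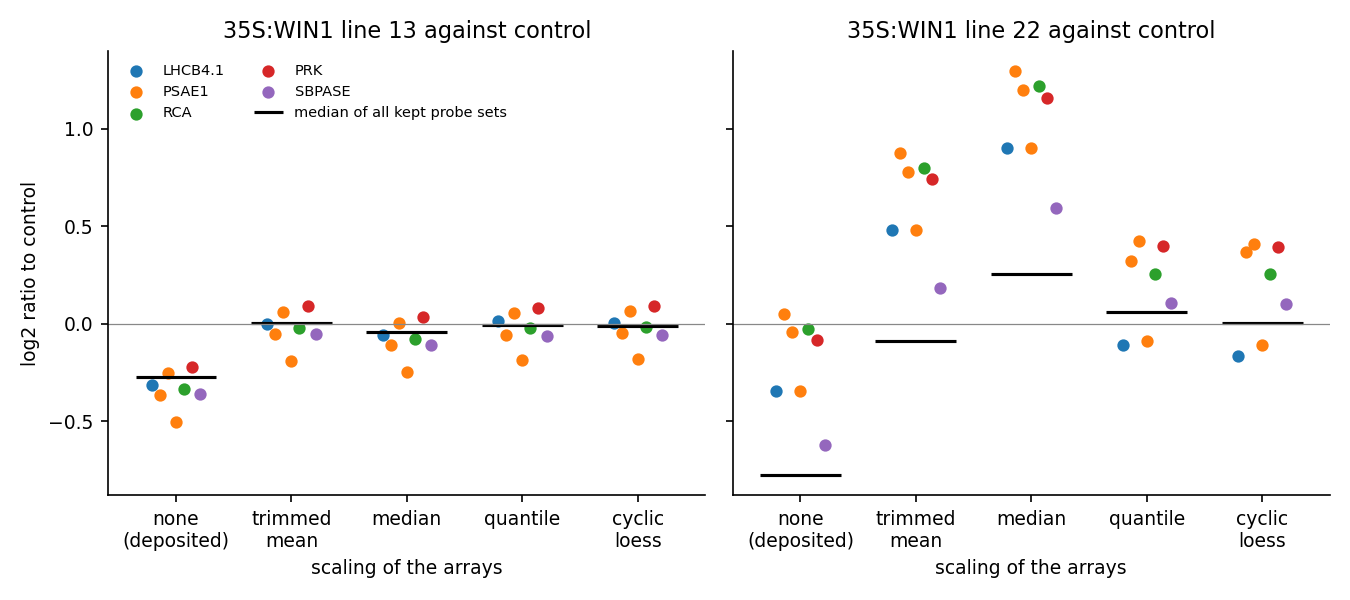
Log2 ratio to the control of the 7 probe sets (points, coloured by gene) and the median of all kept probe sets (black bars) under no scaling and under 4 scalings of the arrays, in line 13 (left) and line 22 (right). In line 22 LHCB4.1 runs from -0.35 without scaling to 0.90 with median scaling, and in line 13 the points stay within 0.25 of 0 under each of the 4 scalings.

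Other genes of photosynthesis were taken from a list of 113 further loci, of which 11 were paired with a probe set and all 13 of their probe sets were kept. No member passed the limma test (0 of 13 at an adjusted p of 0.05, against 0.0346% of all kept probe sets, and 0 of 13 at an unadjusted p under 0.05, against 2.23%). By the log2 ratio with the pseudocount, none was 2-fold from the control in the same direction in both lines (0 of 13, against 1.42%). Across the 13, the median log2 ratio came to -0.14 (line 13) and 0.41 (line 22), beside 0.0058 and -0.089 over all kept probe sets and -0.020 and 0.29 over the brightest 20%. Line 22 was above the control in 10 of the 13 (45.7% of all kept probe sets) and line 13 in 5 (50.9%). Of the 13, 8 lay in the brightest bin, and 7 in line 22 and 6 in line 13 were above the median of equally bright probe sets. The sets of LHCB4.3, PSBY and PORB and 12739_s_at of LHCB1.5 are s sets. A part from related transcripts was not tested for them.

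Subunits of the photosystems had ratios close to those of their references. PSAN (AT5G64040), a photosystem I subunit on the lumen side, gave a scaled intensity of 1595 in control leaves, 1676 in line 13 and 2464 in line 22. PSBW (AT2G30570), a small photosystem II subunit, had 2 probe sets, with log2 ratios of -0.0044 and 0.047 in line 13 and 0.65 and 0.79 in line 22. PSBY (AT1G67740), another small subunit, had 0.27 in line 22, and PSB27 (AT1G03600), which serves the assembly and repair of photosystem II, had 0.41. In line 22 these 5 probe sets differed by -0.28 (PSBY) to 0.24 (PSBW) from the median of equally bright probe sets.

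The antenna genes other than LHCB4.1 did not share a pattern. LHCB4.3 (AT2G40100), a further CP29 isoform and the dimmest of the list, gave a scaled intensity of 134.5 in control leaves, 60.2 in line 13 and 43.5 in line 22. Both lines were below the control, with log2 ratios of -0.96 and -1.30, a mean of -1.13 ± 0.24 (SD between lines, n = 2; limma adjusted p = 0.9999). LHCB4.1, of the same subfamily, had -0.0020 and 0.48. LHCB4.3 was at least 2-fold lower in both lines without scaling, with the 5th percentile as pseudocount and with a floor in place of a pseudocount. The line 13 ratio of LHCB4.3 had 1% of equally bright probe sets below it and the line 22 ratio 11%. LHCB1.5 (AT2G34420, LHB1B2 in the annotation), a protein of the main antenna of photosystem II, had probe sets that differed in brightness. Control, line 13 and line 22 leaves gave 2581, 2009 and 4277 for 12739_s_at, and 273.6, 233 and 678.4 for 12738_r_at. Both were lower in line 13 (log2 ratios of -0.36 and -0.22) and higher in line 22 (0.72 and 1.25).

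In the neighbouring pathways, GSA1 (AT5G63570), an aminotransferase early in chlorophyll synthesis, gave a scaled intensity of 736.6 in control leaves, 611.2 in line 13 and 340.8 in line 22. Its log2 ratios were -0.26 and -1.07, so both lines were below the control, within the middle 80% of equally bright probe sets. PORB (AT4G27440), a light-dependent protochlorophyllide oxidoreductase, had -0.14 and 0.15. HPR1 (AT1G68010), the hydroxypyruvate reductase of photorespiration, had 0.085 and -0.016. AT1G11860, also listed under photorespiration, had 0.013 and 0.42. Within carbon fixation itself, AT1G56190 (listed as PGK2, beside RCA, PRK and SBPASE) had -0.19 and 0.37. Its line 22 ratio was 0.44 above its reference median, with 69% of that reference below it. Of the 13 probe sets, 11 in line 13 and 12 in line 22 lay inside the middle 80% of their references. The exceptions were LHCB4.3 and 12739_s_at of LHCB1.5 in line 13, both below, and 12738_r_at of LHCB1.5 in line 22, above.

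**Figure D5:**
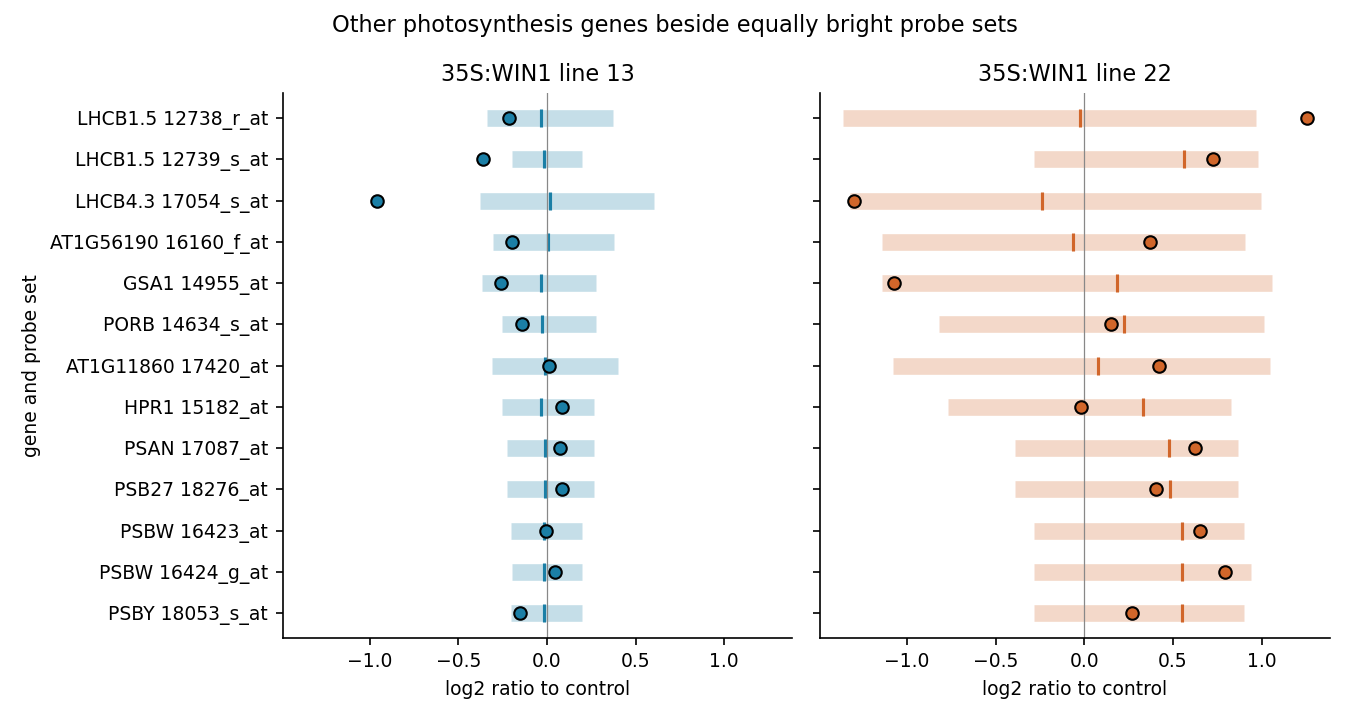
Log2 ratio to the control of the 13 probe sets of other photosynthesis genes (points) in line 13 (left) and line 22 (right), with the middle 80% (pale bars) and the median (ticks) of the 200 equally bright probe sets. LHCB4.3 lies furthest to the left in both panels, at -0.96 and -1.30, and 12738_r_at of LHCB1.5 furthest to the right in line 22, at 1.25.

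The label of leaf tissue could be set only against the genes themselves and 1 marker of another organ. That is too little to settle the organ, and no marker of flower, seed or root was paired with a probe set. The 7 probe sets were among the 937 brightest of 8247 on each array, and 6 of them were in the brightest of the 10 bins of kept probe sets. Of 15 marker genes of flower, seed, root and pollen, 1 was paired with a probe set and 14 were not analysed here. That gene, the actin ACT11, which is expressed mainly in pollen and other reproductive tissue, gave a scaled intensity of 19.7 in control leaves, 7.83 in line 13 and 101.6 in line 22. Its part in the line 22 values was not tested. Line 22 also stood apart as an array, with a correlation of log2 values with the control of r = 0.840 over kept probe sets, against 0.965 for line 13. Every mean over the lines given above therefore stands beside the value of each line.

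The genes nearest in pattern were found by the distance between pairs of log2 ratios over the lines, which rests on 3 arrays only. Among 2477 named genes, those nearest to LHCB4.1 were VPS22, IAA18 and ATNTT2, at distances of 0.012, 0.015 and 0.026. Those nearest to PSAE1 were ZAT7, CCL and TBL34 (0.0085, 0.011 and 0.018), and those nearest to RCA were FTSZ2-1, AT2G01720 and AT4G03150 (0.016, 0.017 and 0.017). PRK was nearest to AT1G24360, AT2G31810 and AT2G40510 (0.027, 0.037 and 0.040). SBPASE was nearest to AT2G24230, AT4G26950 and AT4G31530 (0.018, 0.019 and 0.020). Between 26 genes (RCA) and 58 genes (SBPASE) lay within a distance of 0.1, so many genes shared each pattern. TBL34 and AT2G24230 were close to the pseudocount of 18.6 (scaled intensities of 13.1 and 14.3 in line 13), so their ratios were shrunk by it and their places on this list mean little. None of these nearest genes was on the list of photosynthesis genes. Besides the 5 genes themselves, only 11 listed genes had a kept probe set, against 2477 named genes searched. With so few, their absence here says nothing about the 5 genes.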

How the data were processed

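The authors deposited linear intensity values, 1 per probe set and array, with 13.6% to 16% of an array's values at or below 0; the method that summarised the probes is not given in the sources used here. Per the labels' protocols, cRNA was labelled, hybridised and scanned by the manufacturer's instructions. All 3 arrays shared 1 chip lot and 1 scan session, per the file headers, so no batch could be tested. There were 2 WIN1 lines and 1 control, so p-values rest only on the spread between these lines, mostly as pooled over kept probe sets. The number of arrays limits the precision.

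Arrays were scaled to a common mean trimmed by 2% at each end (176.6; factors of 0.788 for the control and 0.981 and 1.40 for lines 13 and 22). Values below 0 were set to 0, the 20th percentile of positive values (18.6) was added and log2 taken. Probe sets above the 30th percentile of mean log2 level were kept (5773). limma 3.58.1 in R 4.3.3 was fitted with lmFit and eBayes with trend, on 1 residual degree of freedom and 85.3 prior ones, with the lone control assumed to vary like the lines. Differences from equally bright probe sets carry no test. The procedure was run on simulated data with larger changes, less noise than line 22 and no shift that varies with brightness. That run does not tell how well ratios as small as those here are recovered.

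GEO's platform annotation, updated through RefSeq (TAIR10.1), gave 1 gene for 3794 of the 8247 probe sets, several for 70 and no gene for 4383, and 3784 matched a locus. The files name no build, so coordinates are not printed, and sequences are not used here. The named genes were the 5 genes, each measured gene of the photosynthesis list (by locus or annotation words) and the 3 nearest in pattern to each. The genes, lists and settings were chosen with earlier results of these data known. Scaling, pseudocount, filter, eBayes setting, reference and fold were varied, and each line was left out.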

Additional observations from a re-analysis of the deposited data

How the results depend on the processing

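No paired analysis was possible because lines and control share fewer than 2 replicate numbers. No probe set of the 5 genes passed limma under any alternative that gave a test (adjusted p from 0.964 to 1). Without scaling, the mean log2 ratio turned to -0.33 for LHCB4.1, -0.16, -0.15 and -0.42 for the PSAE1 probe sets (18088_i_at, 18089_r_at and 18090_s_at), -0.18 for RCA, -0.15 for PRK and -0.49 for SBPASE. For LHCB4.1 and 18090_s_at it turned to -0.047 and -0.14 with quantile normalization and to -0.079 and -0.15 with cyclic loess. Left to 1 line, the ratio ran from -0.0020 to 0.48 for LHCB4.1, from -0.054 to 0.88, from 0.062 to 0.78 and from -0.19 to 0.48 for the PSAE1 probe sets, from -0.023 to 0.80 for RCA, from 0.088 to 0.74 for PRK and from -0.055 to 0.18 for SBPASE.

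The log2 ratio of line 13 to line 22 was counted as moved if it changed by more than its SD over equally bright probe sets. It moved for LHCB4.1, 18088_i_at, 18090_s_at and RCA to 0.030, -0.42, -0.16 and -0.31 without scaling, to 0.12, -0.38, -0.097 and -0.28 with quantile normalization and to 0.17, -0.42, -0.073 and -0.27 with cyclic loess. Without scaling it also went from -0.24 to 0.26 for SBPASE, from -0.65 to -0.14 for PRK and from -0.72 to -0.21 for 18089_r_at. These changes were within that SD, which was larger here (0.97, 0.68 and 0.60, against 0.48 for LHCB4.1). Without scaling the change was of similar size for every one of these probe sets, so the split rests on the SD. The difference from equally bright probe sets moved for LHCB4.1 to 0.024 with 400 neighbours and 0.036 with neighbours by control brightness, where it was -0.054 for 18090_s_at. For SBPASE it turned from 0.050 to -0.036 with 100 neighbours. Left to 1 line, this difference ran from -0.083 to 0.0076 for LHCB4.1, from -0.043 to 0.34, from 0.066 to 0.37 and from -0.18 to -0.080 for the PSAE1 probe sets, from -0.011 to 0.24 for RCA, from 0.084 to 0.36 for PRK and from -0.031 to 0.14 for SBPASE. The count of photosynthesis probe sets 2-fold from the control in both lines, 0 of 20, became 1 (LHCB4.3) at 1.5-fold, with a floor, without scaling and with the 5th percentile as pseudocount, and ran from 0 to 3 over single lines. Scaling factors shift all ratios of an array by construction. Other causes were not tested.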
